A study of Mus musculus with 6 samples.

Results

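The interferon response genes described here are 35 mouse genes that interferons are known to induce or that carry the interferon signal and its effects, chosen by name from the 24393 genes listed in each count table. They comprise 20 induced antiviral genes, 3 sensors of viral RNA, 5 regulators and 7 antigen presentation genes. All 35 were listed, 26 passed the filter on low counts and entered the test, and 9 did not (Isg15, Ifit1, Ifit3, Oas1a, Oas2, Mx1, Mx2, Rsad2 and Irf7). The question was how these genes differed between HOXA13 and CONTROL cells and how far they varied inside CONTROL.

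Poly-A RNA was sequenced from 3 CONTROL and 3 HOXA13 cultures of KH2 cells, a mouse embryonic stem cell line built to take up doxycycline-inducible genes at 1 locus, for which the labels give the strain C57/BL/6. All cultures were differentiated towards endoderm on M15 feeder cells, a mesoderm-derived line, with Noggin, CHIR, Activin-A and basic fibroblast growth factor and without LIF. Doxycycline at 1.25 µg/ml was added on day 4, E-cadherin and CXCR4 double-positive cells were isolated by flow sorting on day 6, and they were grown for another 1 day with doxycycline; the same protocol stands for both groups. HOXA13 cells carried the human HOXA13 gene with a FLAG tag in hygromycin-selected clones, and the construct in CONTROL cells is not given in the sources used here. The study's methods call the samples biological replicates without saying which clone gave each.

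Libraries held between 12279884 and 17331638 counts. The row with the human identifier ENSG00000106031, which the tables pair with no symbol, had 0 counts in all CONTROL libraries and 2497, 7666 and 6572 counts in HOXA13 replicates 1, 2 and 3. CONTROL 2 stood apart from the other controls, with a Spearman's rho across genes of 0.908 to CONTROL 1 and 0.931 to CONTROL 3, against 0.977 between CONTROL 1 and CONTROL 3 and 0.963 to 0.986 within HOXA13. Of 16 definitive endoderm markers 12 were tested. All 16 summed to 257 to 733 CPM (counts divided by the scaled library size) in CONTROL against 877 to 965 CPM in HOXA13. Abundant genes weigh most in this sum. The mean over the 12 of log2 CPM minus the mean of the 6 libraries overlapped between the groups. It was -0.62, 0.17 and -0.16 in CONTROL 1, 2 and 3 and 0.31, 0.32 and -0.02 in HOXA13 1, 2 and 3. The log2 fold change of HOXA13 over CONTROL was positive in 7 and negative in 5. Without overlap were 3 (25.0%, against 20.0% of all tested genes), 2 higher and 1 lower. Of the 16, Cer1 had 0 counts in all libraries and was not tested, Sox17 had 13 to 63 and the sorting marker Cxcr4 30 to 147. Cdh1, which encodes the sorting marker E-cadherin and is not in that list, had 2708 to 31223 counts. In these bulk samples fewer cells of a type and less RNA per cell cannot be told apart.

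Type I and III interferons are secreted when a cell senses viral RNA or DNA, and their receptors act through JAK kinases to assemble a complex with STAT2 and IRF9 that binds the interferon-stimulated response element (ISRE) in front of target genes. Interferon gamma acts through a gamma-activated site (GAS), and it is known for inducing guanylate-binding proteins, the immunoproteasome and the peptide transporters. Pluripotent stem cells are known to respond weakly to interferon, a property that changes as they differentiate.

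The sequence before the start sites was read first, because the ISRE is the feature by which many of these genes are recognised. Promoter windows of RefSeq (build GRCm38.p6) were available for 28 members, and those of Usp18, Oas2, Mx1, Mx2, Parp14, Dhx58 and Tap2 were not used here. Within the 250 bases before a start, the ISRE letters, GAAA followed by any 2 bases and GAAA again, on either strand occurred in 11 of the 28 members (39.3%), against 3.46% of 27025 genes with a window. The letters TTCNNNGAA, used for the GAS, occurred in 5 of the 28 (17.9%), against 8.13% of all, namely in Ifit2, Oas1a, Bst2, Irf1 and Psmb8. Of the 6 matched members that were too low to test, 5 held the ISRE letters (Isg15, Ifit1, Ifit3, Oas1a and Rsad2). Of the 22 matched members that were tested, 6 held them (Bst2, Ifitm2, Gbp2, Gbp3, Stat2 and B2m). A match describes letters only.

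The stretches around the ISRE letters of 8 members are shown on the strand of the gene, with the letters of the motif and its overlapping copies in capitals, since they range from Ifit1, at 0 counts in every control, to B2m, the member with the highest mean CPM. They lie at chr4:156200860-156200911 for Isg15 (minus strand), chr19:34640770-34640828 for Ifit1 (plus), chr12:26456548-26456587 for Rsad2 (minus), chr8:71537572-71537617 for Bst2 (minus), chr3:142620589-142620628 for Gbp2 (plus), chr3:142559984-142560029 for Gbp3 (plus), chr10:128270261-128270300 for Stat2 (plus) and chr2:122147533-122147572 for B2m (plus). In Bst2 the capitals also take in a GAS match that overlaps the ISRE.
Isg15: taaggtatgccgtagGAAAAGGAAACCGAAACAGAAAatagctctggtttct
Ifit1: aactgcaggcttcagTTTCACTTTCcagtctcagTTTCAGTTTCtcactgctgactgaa
Rsad2: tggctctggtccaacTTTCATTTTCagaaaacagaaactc
Bst2: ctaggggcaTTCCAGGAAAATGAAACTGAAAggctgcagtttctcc
Gbp2: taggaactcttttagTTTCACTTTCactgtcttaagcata
Gbp3: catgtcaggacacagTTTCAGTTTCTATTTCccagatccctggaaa
Stat2: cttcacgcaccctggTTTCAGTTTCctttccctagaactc
B2m: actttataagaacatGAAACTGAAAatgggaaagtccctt

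Levels are given as normalised CPM, counts scaled to the TMM-adjusted library size, and the smallest level that a floor of 3 counts allows was 0.176 to 0.240 CPM in a library, which covers counting error only. Differences are log2 fold changes of HOXA13 over CONTROL from the quasi-likelihood test of edgeR, adjusted by Benjamini-Hochberg over all 13600 tested genes and a threshold of 0.05. No tested member passed this threshold, where 0.309% of all tested genes did (42 genes, 36 higher and 6 lower in HOXA13). At an unadjusted p under 0.05 edgeR found 3 of 26 members (Ifit2, Ddx58 and Gbp2), which is 11.5% against 14.1% of all tested genes. DESeq2 also called 0 members, where 5.05% of the genes with an adjusted p were called, and limma voom with sample quality weights called 4, where 15.4% of all genes were called. Of these 4, Ifit2, Ddx58 and H2-K1 were higher (9.11% of all genes) and B2m lower (6.34%). Without CONTROL 2, edgeR called 4 members, where 14.2% of all genes were called: Ddx58 and H2-K1 were higher (7.92% of all genes) and B2m and Tap1 lower (6.32%). The median log2 fold change over the tested members was 0.09, with 15 above and 11 below 0, against -0.01 over all tested genes. Values ranged from -2.10 for Gbp3 to 1.26 for Ifit2, with adjusted p-values from 0.265 to 0.988.

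**Figure D1:**
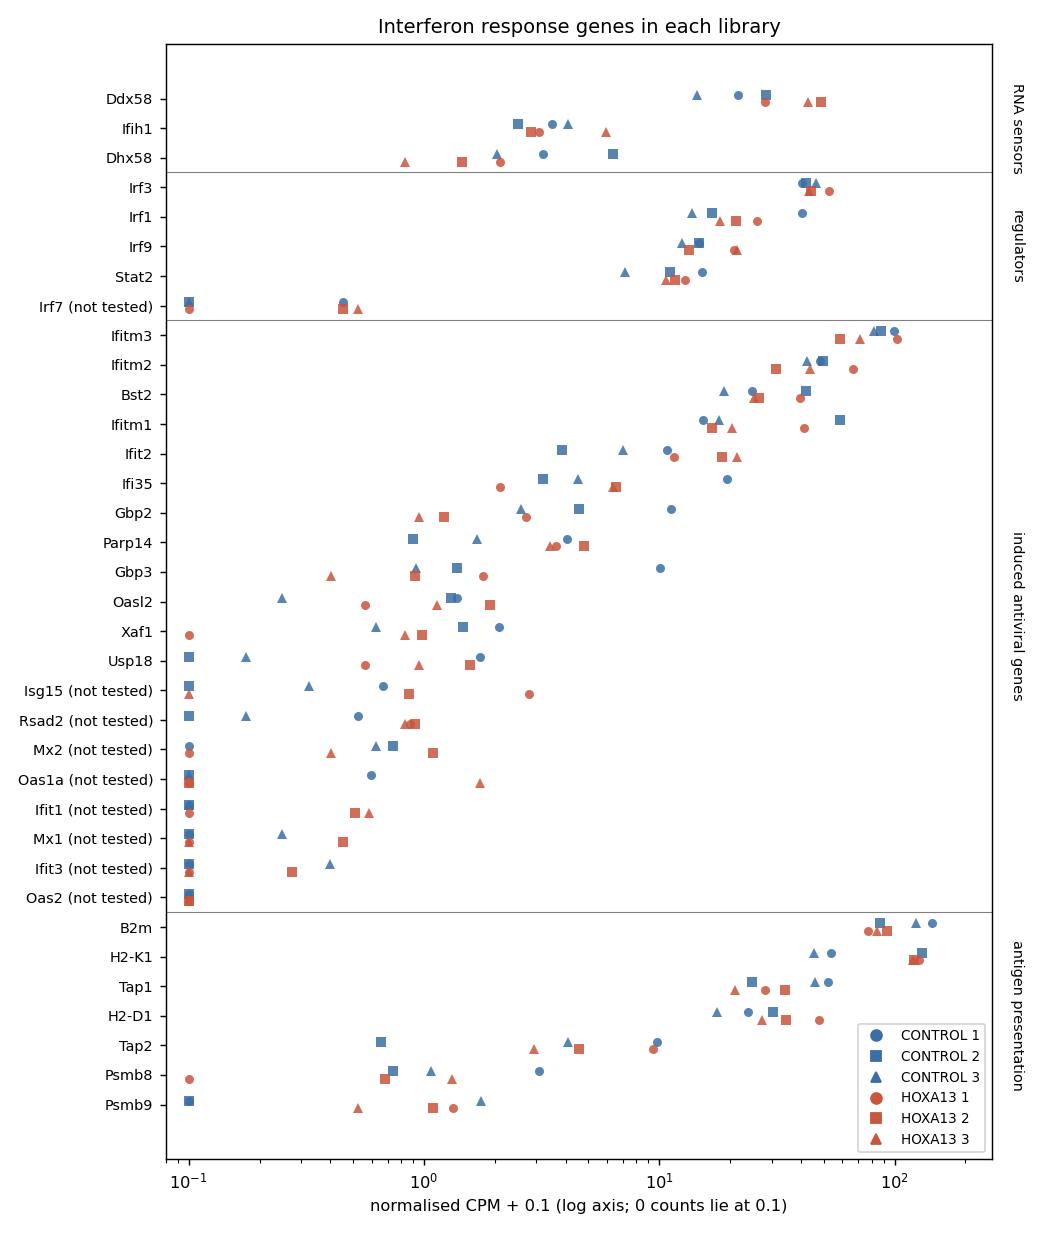
Normalised CPM plus 0.1 of the 35 members on a log axis, 1 point per library, with CONTROL in blue, HOXA13 in red and the replicate number as the shape. Most members have overlapping groups, and the 9 untested members stay at or under 2.69 CPM, the level of Isg15 in HOXA13 1.

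The sensors recognise viral RNA in the cytoplasm. Ddx58, which encodes RIG-I (mm9 chr4:40150806-40186861, minus strand), had 21.6, 28.3 and 14.4 CPM in CONTROL 1, 2 and 3 against 28.05, 48.4 and 42.7 CPM in HOXA13 1, 2 and 3. HOXA13 2 and 3 lay above every control, whereas HOXA13 1 lay just under CONTROL 2. The log2 fold change was 0.89 ± 0.32 (SE, n = 3 per group, 95% interval 0.16 to 1.62, edgeR adjusted p = 0.265). Ddx58 passed the threshold without CONTROL 2 (log2 fold change 1.13, adjusted p = 0.0388), the log2 fold change was 0.65 without CONTROL 3, and its adjusted p ranged from 0.0109 to 0.673 over the alternatives.

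The upstream window of Ddx58 (RefSeq, GRCm38.p6 chr4:40239826-40240075, minus strand) is shown because Ddx58 was the sensor with the largest positive log2 fold change while neither motif occurred in these 250 bases.
Ddx58: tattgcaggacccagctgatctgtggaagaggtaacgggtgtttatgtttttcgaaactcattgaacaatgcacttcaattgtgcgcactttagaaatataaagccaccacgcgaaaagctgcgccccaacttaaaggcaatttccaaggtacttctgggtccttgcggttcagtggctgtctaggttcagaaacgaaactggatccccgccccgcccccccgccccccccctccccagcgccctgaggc

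Dhx58, which encodes LGP2, a regulator of the other sensors, had 3.12, 6.24 and 1.95 CPM in CONTROL against 2.00, 1.35 and 0.73 CPM in HOXA13. Its groups touched only where HOXA13 1 lay just above CONTROL 3, and the log2 fold change was -1.47 ± 0.76 (SE, edgeR adjusted p = 0.447). Leaving out 1 library moved that of Dhx58 between -1.86 (without HOXA13 1) and -0.92 (without CONTROL 2). Ifih1, which encodes the long-RNA sensor MDA5, had 3.40, 2.40 and 3.97 CPM in CONTROL against 3.00, 2.75 and 5.82 CPM in HOXA13. Its groups overlapped, with a log2 fold change of 0.24 ± 0.58. The median of the 3 sensors was 0.24.

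The regulators were tested apart from Irf7, with a median log2 fold change of 0.10. Irf3, the constitutive factor that sensors activate, had 40.2, 42.1 and 46.3 CPM in CONTROL against 52.6, 44.2 and 43.4 CPM in HOXA13. The groups overlapped, and the 95% interval of its log2 fold change ran from -0.30 to 0.55 around 0.12. Irf9, the DNA-binding part of the complex that binds the ISRE, had 14.6, 14.7 and 12.4 CPM in CONTROL against 20.6, 13.2 and 21.2 CPM in HOXA13. HOXA13 1 and 3 were the highest libraries, HOXA13 2 lay among the controls, and the log2 fold change was 0.40 ± 0.28 (SE, edgeR adjusted p = 0.601).

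Stat2, which belongs to the same complex, had 15.04, 11.0 and 7.05 CPM in CONTROL against 12.8, 11.6 and 10.6 CPM in HOXA13. Every HOXA13 library lay inside the CONTROL range, and the log2 fold change was 0.08 ± 0.35. Irf1, a factor induced by interferon gamma, had 40.3, 16.7 and 13.6 CPM in CONTROL against 25.9, 21.1 and 17.9 CPM in HOXA13. CONTROL 1 was the highest library and the groups overlapped, with a log2 fold change of -0.12 ± 0.42. Irf7, the factor that amplifies interferon production, had 5, 0 and 0 counts in CONTROL and 0, 6 and 7 counts in HOXA13 and was too low to test.

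Of the 20 induced antiviral genes, 12 were tested, 6 had a positive and 6 a negative log2 fold change, and their median was -0.10. Ifit2, which encodes a protein that binds viral RNA and limits its translation (mm9 chr19:34625184-34650909, plus strand), had 10.7, 3.76 and 6.90 CPM in CONTROL against 11.5, 18.5 and 21.3 CPM in HOXA13. All HOXA13 libraries lay above all CONTROL libraries, although HOXA13 1 exceeded CONTROL 1 only narrowly. The log2 fold change was 1.26 ± 0.45 (SE, n = 3 per group, 95% interval 0.23 to 2.29, edgeR adjusted p = 0.265). Ifit2 was the only tested member whose groups did not overlap, 3.85% of the members tested against 20.0% of all tested genes (11.5% higher in HOXA13). Without CONTROL 2 the groups of 8 members did not overlap, where 48.7% of all genes did not.

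The first of its upstream windows (RefSeq, GRCm38.p6 chr19:34550444-34550693, plus strand) is shown for comparison with Ifit1 above, since it held no ISRE letters and 1 GAS match, in capitals.
Ifit2: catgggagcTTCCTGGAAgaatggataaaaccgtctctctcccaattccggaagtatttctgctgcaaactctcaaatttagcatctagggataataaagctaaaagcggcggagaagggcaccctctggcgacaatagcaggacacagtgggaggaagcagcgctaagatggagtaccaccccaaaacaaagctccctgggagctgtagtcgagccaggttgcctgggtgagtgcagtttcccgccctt

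The guanylate-binding proteins are large GTPases that attack membranes around intracellular microbes. Gbp2 (mm9 chr3:142283566-142300972, plus strand) had 11.1, 4.48 and 2.47 CPM in CONTROL against 2.61, 1.11 and 0.85 CPM in HOXA13. CONTROL 1 and 2 lay above every HOXA13 library, while CONTROL 3 lay just under HOXA13 1. Its log2 fold change was -1.98 ± 0.78 (SE, n = 3 per group, 95% interval -3.77 to -0.19, edgeR adjusted p = 0.304). Gbp3 (mm9 chr3:142223016-142236173, plus strand) had 9.93, 1.28 and 0.82 CPM in CONTROL against 1.69, 0.82 and 0.30 CPM in HOXA13. CONTROL 1 alone stood high, and the log2 fold change of -2.10 ± 1.15 (edgeR adjusted p = 0.476) became -0.20 without it. That of Gbp2 became -1.22 without CONTROL 1, and its adjusted p ranged from 0.113 to 0.783 over the alternatives.

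The interferon-induced transmembrane proteins block the entry of viruses, and in embryonic cells Ifitm genes are known to be expressed without infection. Ifitm3 had 99.0, 87.5 and 81.5 CPM in CONTROL against 102, 58.8 and 70.9 CPM in HOXA13. Ifitm2 had 47.9, 49.4 and 42.4 CPM in CONTROL against 66.7, 31.3 and 43.7 CPM in HOXA13. In both genes HOXA13 1 was the highest library and HOXA13 2 the lowest, and the 95% intervals of the log2 fold changes ran from -0.73 to 0.31 for Ifitm3 and from -0.63 to 0.67 for Ifitm2. Ifitm1 ranged from 15.2 to 58.7 CPM in CONTROL, with CONTROL 2 the highest, and from 16.6 to 41.0 CPM in HOXA13. Bst2, whose product tetherin holds budding viruses at the cell surface, ranged from 18.8 to 42.1 CPM in CONTROL against from 25.3 to 39.6 CPM in HOXA13.

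The other tested antiviral genes were low. Ifi35, which encodes an interferon-induced leucine zipper protein, had 19.3, 3.12 and 4.42 CPM in CONTROL against 2.00, 6.44 and 6.24 CPM in HOXA13. CONTROL 1 was far above all others, and the log2 fold change of -0.87 turned to 0.36 without it. Parp14, an ADP-ribosyltransferase, had 3.97, 0.80 and 1.57 CPM in CONTROL against 3.54, 4.69 and 3.33 CPM in HOXA13, so that the groups overlapped through CONTROL 1 (log2 fold change 0.86 ± 0.73, 1.67 without CONTROL 1 and 0.46 without CONTROL 2). Usp18, which encodes the protease that removes ISG15 from proteins, had 1.63, 0 and 0.075 CPM in CONTROL against 0.46, 1.46 and 0.85 CPM in HOXA13. CONTROL 1 was again the highest, and the 95% interval of its log2 fold change ran from -2.78 to 4.16 around 0.69. Without CONTROL 1 the other controls held 0 and 1 counts, the groups of Usp18 did not overlap and the fitted log2 fold change was 4.30, a value that depends on the prior count, while without CONTROL 2 it was 0.11. Xaf1, a promoter of apoptosis, had 1.99, 1.36 and 0.52 CPM in CONTROL against 0, 0.88 and 0.73 CPM in HOXA13, with overlap. Oasl2, of the oligoadenylate synthetase family, stayed at or under 1.82 CPM in every library.

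The 8 untested antiviral genes include those most often used as signs of an interferon response. Isg15, a ubiquitin-like modifier, had 8, 0 and 3 counts in CONTROL and 35, 13 and 0 counts in HOXA13. Rsad2, which encodes viperin, had 6, 0 and 1 counts in CONTROL and 10, 14 and 12 counts in HOXA13, and these values did not overlap. With no filter on counts, 8.82% of members did not overlap, against 16.4% of all genes. Ifit1 had 0 counts in every CONTROL library and 0, 7 and 8 counts in HOXA13, and Oas2 had 0 counts in all 6 libraries. Mx1, Mx2, Ifit3 and Oas1a had at most 27 counts in any library, Oas1a reaching that count in HOXA13 3 alone. Reads of Ifit3 and Oas1a are also uncertain, because 41.1% and 41.7% of the 75-base stretches of their transcripts occur in I830012O16Rik and Oas1g.

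**Figure D2:**
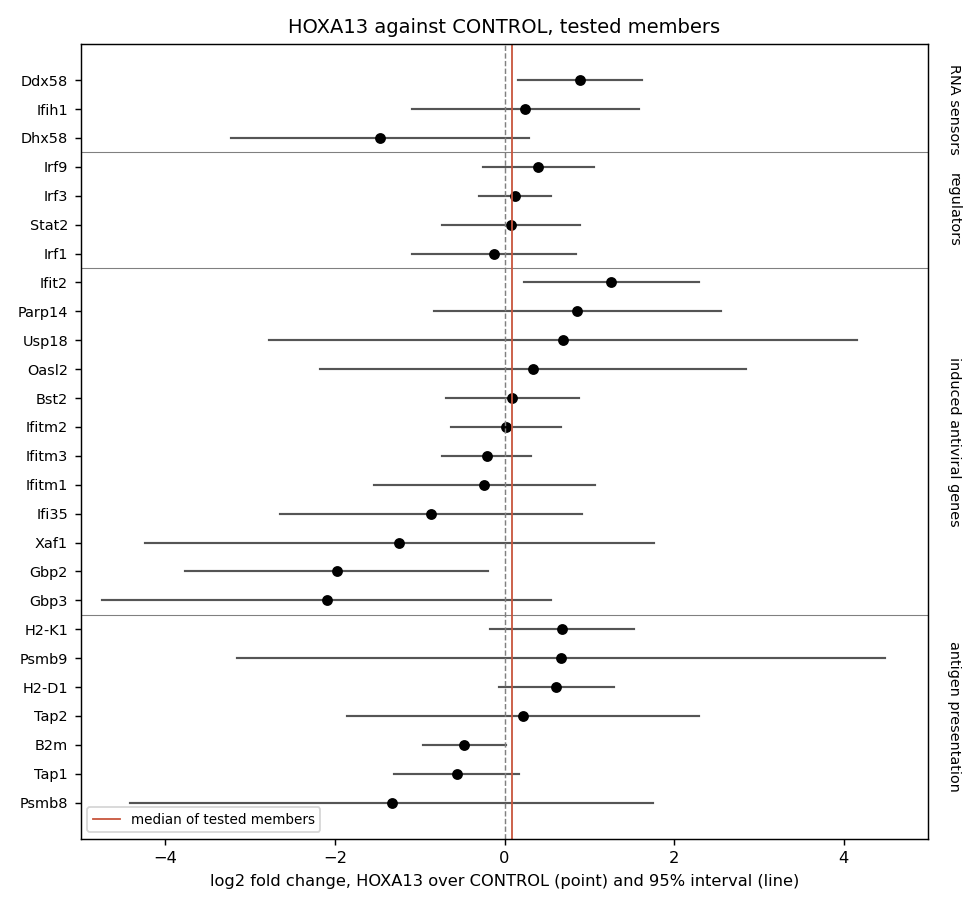
Log2 fold change of HOXA13 over CONTROL (point) with its 95% interval (line) for the 26 tested members, grouped by role, with the member median of 0.09 in red. The intervals of Ddx58, Ifit2 and Gbp2 leave out 0 before adjustment, and those of Usp18 and Psmb9 are among the widest.

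The antigen presentation genes make class I molecules and the peptides they carry. B2m, the light chain shared by all class I molecules (mm9 chr2:121973422-121978819, plus strand), had 145, 86.3 and 123 CPM in CONTROL against 77.4, 93.2 and 84.0 CPM in HOXA13. CONTROL 1 and 3 lay above every HOXA13 library and CONTROL 2 among them. The log2 fold change was -0.48 ± 0.21 (SE, n = 3 per group, 95% interval -0.97 to 0.01, edgeR adjusted p = 0.368). Without CONTROL 2 it was -0.67 (adjusted p = 0.0239), without CONTROL 1 it was -0.33, and over the alternatives the adjusted p ranged from 0.0239 to 0.749.

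H2-K1, a classical class I heavy chain (mm9 chr17:34132962-34137278, minus strand), had 53.8, 130.1 and 45.5 CPM in CONTROL against 127, 121 and 119 CPM in HOXA13. The HOXA13 libraries lay close together, and CONTROL 2 lay above them while CONTROL 1 and 3 lay far below. The log2 fold change was 0.68 ± 0.37 (SE, n = 3 per group, 95% interval -0.17 to 1.53, edgeR adjusted p = 0.474). Without CONTROL 2 it was 1.28 (adjusted p = 0.00223), without CONTROL 1 or CONTROL 3 it was 0.45 or 0.39, and over the alternatives the adjusted p ranged from 0.00223 to 0.835. The heavy chain gene H2-D1 (mm9 chr17:35399675-35404444, plus strand) had 23.7, 30.3 and 17.5 CPM in CONTROL against 47.5, 34.5 and 27.2 CPM in HOXA13. HOXA13 1 and 2 exceeded every control and HOXA13 3 lay under CONTROL 2, with a log2 fold change of 0.61 ± 0.30 (edgeR adjusted p = 0.412). Leaving out 1 library moved it between 0.36 (without HOXA13 1) and 0.80 (without CONTROL 2). H2-K1 and H2-D1 are close relatives, and 5.56% of the 75-base stretches of H2-D1 occur in other class I genes.

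The upstream window of H2-K1 (RefSeq, GRCm38.p6 chr17:34000348-34000597, minus strand) is shown beside that of B2m above, since the heavy and light chain genes had log2 fold changes of opposite sign. It held neither motif as spelled here.
H2-K1: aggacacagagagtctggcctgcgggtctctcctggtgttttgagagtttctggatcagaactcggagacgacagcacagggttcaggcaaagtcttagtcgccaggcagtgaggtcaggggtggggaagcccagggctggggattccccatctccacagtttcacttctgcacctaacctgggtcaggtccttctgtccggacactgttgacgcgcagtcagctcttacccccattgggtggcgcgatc

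**Figure D3:**
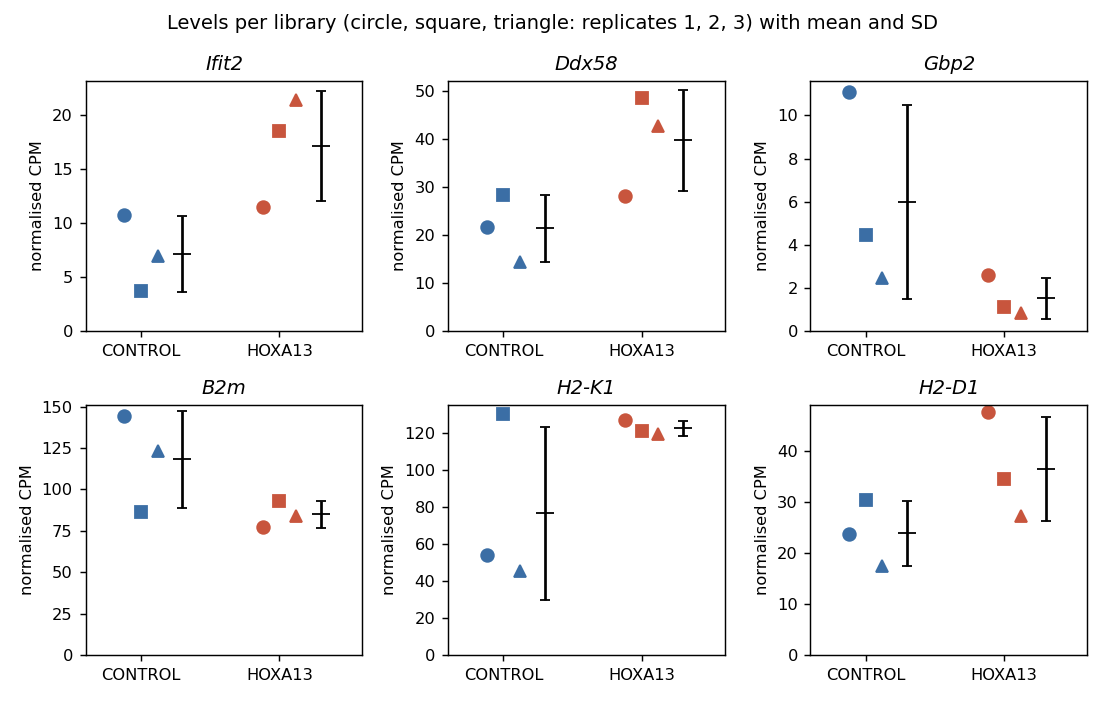
Normalised CPM of Ifit2, Ddx58, Gbp2, B2m, H2-K1 and H2-D1 in each library on linear axes from 0, with the mean and SD of 3 libraries beside the points. For H2-K1 the square of CONTROL 2 at 130.1 CPM lies just above the HOXA13 values and far from the other controls at 53.8 and 45.5 CPM.

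Tap1, a subunit of the transporter that moves peptides into the endoplasmic reticulum, had 52.2, 24.8 and 45.6 CPM in CONTROL against 28.05, 34.0 and 20.8 CPM in HOXA13. CONTROL 1 and 3 were the highest and CONTROL 2 lay among the HOXA13 libraries, with a log2 fold change of -0.57 ± 0.32 (SE, edgeR adjusted p = 0.496) that was -0.37 without CONTROL 1 and -0.84 without CONTROL 2 (adjusted p = 0.0485, range 0.0485 to 0.844 over the alternatives). Tap2, its partner, had 9.65, 0.56 and 3.97 CPM in CONTROL against 9.30, 4.45 and 2.85 CPM in HOXA13. Its groups overlapped, with CONTROL 2 the lowest library (log2 fold change 0.22 ± 0.90).

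The immunoproteasome subunits Psmb8 and Psmb9, which change the peptides that are cut for class I molecules, were near the floor. Psmb8 had 2.98, 0.64 and 0.97 CPM in CONTROL against 0, 0.59 and 1.21 CPM in HOXA13. Psmb9 had 0, 0 and 1.65 CPM in CONTROL against 1.23, 1.00 and 0.42 CPM in HOXA13. Both overlapped between the groups, with 95% intervals of the log2 fold change of -4.41 to 1.76 and -3.15 to 4.49. The overlap of Psmb9 rested on CONTROL 3, since the other controls held 0 counts, and its fitted log2 fold change of 0.67 became 6.70 without that library, a value that depends on the prior count. That of Psmb8 was -1.33, and -0.43 without CONTROL 1. Psmb9 and Tap1 overlap head to head in mm9, and since the strand option of the counting is not given in the sources used here, their reads cannot be told apart at the shared bases.

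Compared per length, as CPM per kilobase of exon, the most abundant members in CONTROL were B2m (137), Ifitm3 (132), Ifitm2 (71.6), Bst2 (37.3), H2-K1 (29.3) and Ifitm1 (28.0). In HOXA13 the corresponding levels were 98.7, 114, 72.6, 39.9, 46.9 and 23.7 CPM per kilobase. Regulators lay lower, from 13.5 for Irf3 to 2.51 for Stat2 in CONTROL.

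The spread inside CONTROL was wide on the log2 scale. The SD of log2 CPM over the 3 CONTROL libraries had a median of 0.81 over the tested members against 0.40 over all tested genes, and in HOXA13 the medians were 0.51 and 0.27. The ratio of the variance of the counts to counting error did not set the members apart. Its median in CONTROL was 22.1 over the tested members against 21.6 over all tested genes, and in HOXA13 11.0 against 13.1. The CONTROL SD exceeded the HOXA13 SD in 18 of 26 members (69.2%), against 66.2% of all tested genes. Among the 14 members that averaged 10 CPM or more, a limit added after seeing the data, the medians were 0.51 in CONTROL and 0.37 in HOXA13, against 0.31 and 0.20 over the 9497 genes at that level. The largest CONTROL SDs belonged to Psmb9 (2.13), Usp18 (1.97), Tap2 (1.94), Gbp3 (1.82) and Ifi35 (1.37). H2-K1 had an SD of 0.81 in CONTROL and 0.047 in HOXA13, while Ifitm2 had 0.12 and 0.55.

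**Figure D4:**
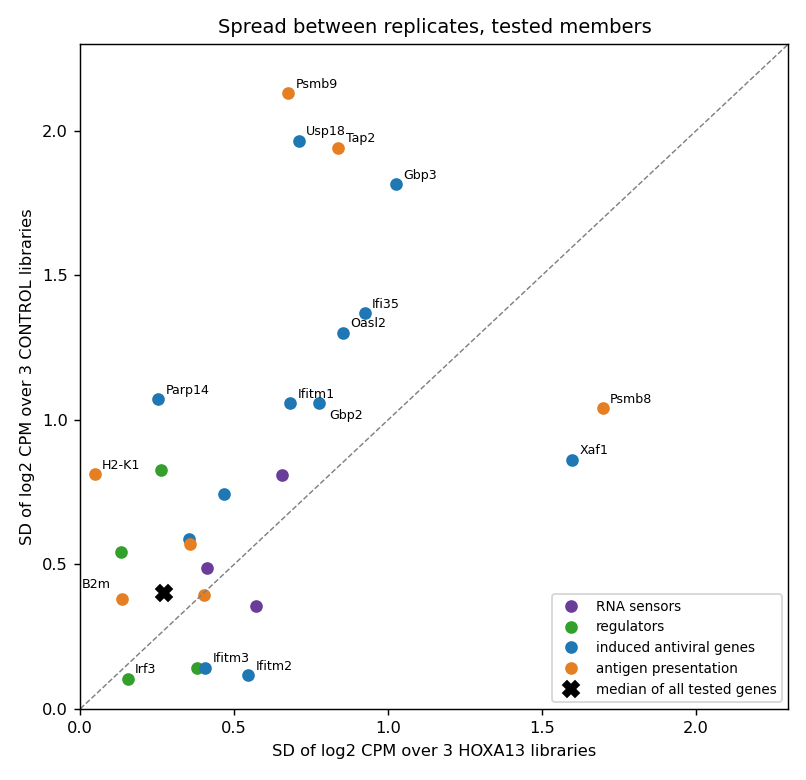
SD of log2 CPM over 3 CONTROL libraries against that over 3 HOXA13 libraries, 1 point per tested member coloured by role, with a dashed line of equal spread. Of the 26 members 18 lie above the line, and the cross marks the medians of all tested genes at 0.40 and 0.27.

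Within CONTROL, replicate 1 was the highest library for 15 of 26 members (57.7%, against 32.4% of all tested genes), replicate 2 for 8 (30.8% against 39.9%) and replicate 3 for 3 (11.5% against 27.7%). A score, the mean over members of log2 CPM minus the mean of the 6 libraries, was 0.50, -0.23 and -0.31 in CONTROL 1, 2 and 3 and -0.01, 0.10 and -0.06 in HOXA13 1, 2 and 3. CONTROL 1 stood highest and the HOXA13 libraries lay between the controls. The score weights low and abundant members alike. The summed level of all 35 members was 674, 649 and 517 CPM in CONTROL against 711, 604 and 597 CPM in HOXA13, where CONTROL 1 did not stand apart.

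Marker lists of cell types also differed between the same libraries. Sums of a list take in its untested genes, and scores do not. The mesenchymal list (24 of 25 genes tested) summed to 16040, 4128 and 12834 CPM in CONTROL against 3187, 7180 and 7036 CPM in HOXA13. The epithelial list (24 genes) scored -2.18, 0.33 and -0.56 in CONTROL and 0.72 to 0.90 in HOXA13. All 24 epithelial log2 fold changes were positive, and 19 genes did not overlap, all higher in HOXA13 (79.2%, against 20.0% of all tested genes). The pluripotency list (15 of 16 genes tested) scored -1.79, 2.18 and -0.90 in CONTROL and 0.93, -0.34 and -0.07 in HOXA13. A list of mesonephric feeder markers (12 of 15 genes tested) summed to 120, 93.8 and 103 CPM in CONTROL against 63.2, 98.1 and 83.2 CPM in HOXA13. The proliferation list (16 genes) scored -0.66, 0.52 and -0.77 in CONTROL and 0.51, 0.19 and 0.21 in HOXA13. The leukocyte list (7 of 11 genes tested) summed to 79.4 to 147 CPM in CONTROL against 66.5 to 109 CPM in HOXA13, with Cd68 at 442 to 707 counts, Laptm5 at 115 to 782 and Lyz2 at 0 to 1119, while Ptprc had 0 counts in 4 libraries and Cd3e in 5. The part of these cell types and of proliferation in the member values was not tested.

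**Figure D5:**
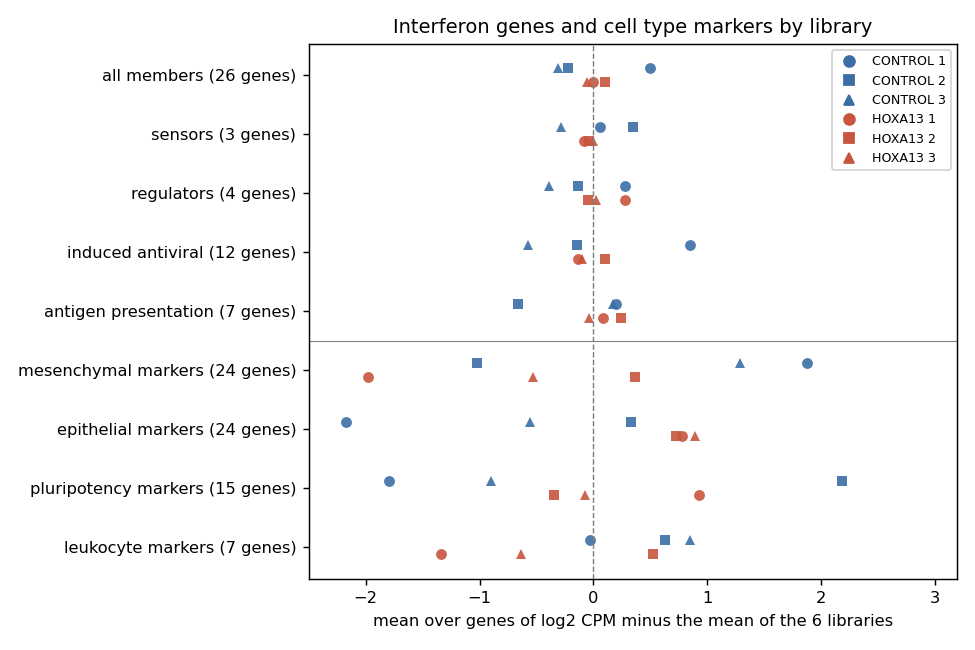
Mean over the tested genes of a list of log2 CPM minus the mean of the 6 libraries, 1 point per library, for the members and their roles above the line and for marker lists below it. Members range from -0.31 to 0.50, and the mesenchymal markers from -1.98 to 1.87.

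The rest of the pathway was read from lists of ligands, receptors and kinases, sensing genes, other induced genes and class I and class II genes, and none of their tested genes passed the edgeR threshold. All 12 listed ligands were too low to test and 10 had 0 counts in every library, among them Ifnb1 and Ifng. Of 13 tested receptor and kinase genes, 4 did not overlap between the groups (30.8%, against 20.0% of all tested genes) and 5 had an unadjusted p under 0.05 (38.5%, against 14.1% of all). Among those without overlap, Ifnlr1 was higher and Ifnar2 and Il10rb were lower, Ifnlr1 and Il10rb being named after their values were seen.

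Ifnar2 had 32.3, 20.5 and 21.1 CPM in CONTROL against 4.30, 14.8 and 13.9 CPM in HOXA13, without overlap. It encodes a subunit of the type I receptor and had a log2 fold change of -1.16 ± 0.46 (edgeR adjusted p = 0.314). HOXA13 1 was the lowest library, and without it the log2 fold change was -0.79, while without HOXA13 2 it was -1.45. Ifnar1, the subunit that completes that receptor, had 141, 98.9 and 129 CPM in CONTROL against 77.1, 80.5 and 102 CPM in HOXA13, overlapping only between CONTROL 2 and HOXA13 3 (log2 fold change -0.51 ± 0.19, edgeR adjusted p = 0.293). It was -0.42 without CONTROL 1 and -0.66 without CONTROL 2 (adjusted p = 0.0335, range 0.0335 to 0.649 over the alternatives).

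Of the interferon gamma receptor genes, Ifngr1 had 22.98, 10.4 and 35.5 CPM in CONTROL against 18.1, 27.4 and 25.0 CPM in HOXA13. Ifngr2 had 41.2, 14.2 and 30.3 CPM in CONTROL against 22.2, 24.1 and 22.5 CPM in HOXA13. In both the HOXA13 libraries lay within the wider CONTROL range, CONTROL 2 being the lowest library, and the log2 fold changes were 0.04 ± 0.42 and -0.32 ± 0.37 (SE).

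Of 16 tested sensing genes 3 did not overlap (18.8%, against 20.0% of all tested genes), Tmem173 and Adar being higher and Rnf135 lower, and 1 had an unadjusted p under 0.05 (6.25%, against 14.1% of all). This gene was Tmem173, which encodes STING. It had 3.83, 8.24 and 0.90 CPM in CONTROL against 18.7, 19.4 and 24.3 CPM in HOXA13, without overlap (log2 fold change 2.27 ± 0.66, edgeR adjusted p = 0.183), and these genes were named after their values were seen. Of 44 other induced genes 23 were tested, with a median log2 fold change of -0.18, and 1 did not overlap (Helz2, higher, likewise named afterwards), which is 4.35% against 20.0% of all tested genes. Of the class I assembly genes 13 of 17 were tested, with a median of 0.07. Of these 4 did not overlap (30.8%, against 20.0% of all tested genes), Calr and H2-Q4 being higher and Canx and H2-M3 lower. Only 1 of the 13 had an unadjusted p under 0.05 (7.69%, against 14.1% of all). Of 7 class II genes 3 were tested and 1, Cd74, was lower without overlap. This is 33.3%, against 20.0% of all tested genes (8.52% lower in HOXA13). An unadjusted p under 0.05 was found for 1 class II gene (33.3%, against 14.1% of all). The class I and class II names too were chosen after their values were seen.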

How the data were processed

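RNA from 3 CONTROL and 3 HOXA13 samples was measured. Deposited were unnormalised read counts for each gene symbol, made by the authors from directional poly-A libraries aligned to mm9; the submitters' processing notes name bcl2fastq 2.17, TopHat2 2.0.14 and HTSeq 0.6.1p1. The annotation, strand option and treatment of multiply aligned reads are not given in the sources used here, so overlapping, antisense and closely related genes are uncertain. Libraries held 12279884 to 17331638 counts.

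The fit used edgeR 4.0.16 (R 4.3.3): filterByExpr (minimum count 10, minimum total 15; 13600 of 24393 genes kept), TMM scaling, and glmQLFit and glmQLFTest on group alone, with Benjamini-Hochberg adjustment over all tested genes. SDs used log2 CPM with a prior count of 2. Alternatives were DESeq2 1.42.0, limma 3.58.1 voom, the edgeR 4 method, RLE and upper quartile scaling, other filters, a replicate block, a prior count of 0.5, members of at least 10 CPM (added after seeing the data) and leaving out each library. Code was tested on simulated data.

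The members, lists and markers were chosen with earlier results of these data known. Values per library are given for the tested members with the 5 largest positive and negative log2 fold changes, the 5 largest CONTROL SDs and the 5 highest means, and for the regulators, sensors, antigen presentation genes and Ifnar1, Ifnar2, Ifngr1 and Ifngr2; 1 further gene of that rule is not reported here. Positions are from GENCODE M1 on mm9, and promoter sequences from RefSeq on GRCm38.p6.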

Additional observations from a re-analysis of the deposited data

How the results depend on the processing

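Of 356 member log2 fold changes under the alternatives, 330 kept their sign, and 17 of 26 members kept it in every alternative. Against 42 genes called by edgeR, DESeq2 called 722, limma voom with sample quality weights 2101, the edgeR 4 method 106, no filter 163, a mean of at least 50 counts 9 and the replicate block 0 (1392 at an unadjusted p under 0.05); leaving out 1 library gave 0 to 2006, the highest without CONTROL 2. Members called were 4 under limma voom and 0 to 4 without 1 library, the 4 (Ddx58, H2-K1, B2m, Tap1) being without CONTROL 2, where 14.2% of all genes were called. Members without overlap were 3 with no filter (8.82%, against 16.4% of all genes) and 3 to 8 without 1 library (11.5% to 28.6%, against 24.9% to 48.7%). Ifitm2 turned to -0.0029 with DESeq2, -0.15 with limma voom, -0.0024 with RLE, -0.0196 with upper quartile scaling, -0.0072 without a filter, -0.011 above a mean of 50 counts and -0.045 under the replicate block. Limma voom turned Ifitm1 to 0.11, Irf1 to 0.016, Tap2 to -0.25 and Ifngr1 to -0.16, and the block turned Irf1 to 0.031. Without 1 library the log2 fold changes ranged from 0.11 to 4.30 for Usp18, 0.067 to 6.70 for Psmb9, -1.28 to 0.36 for Ifi35, -0.24 to 0.69 for Oasl2, -0.15 to 0.47 for Bst2, -0.74 to 0.63 for Ifitm1, -0.33 to 0.22 for Ifitm2, -0.20 to 0.41 for Ifih1, -0.42 to 0.49 for Irf1, -0.18 to 0.34 for Stat2, -0.38 to 1.25 for Tap2, -0.33 to 0.48 for Ifngr1 and -0.65 to 0.024 for Ifngr2. The cause was not tested. The member median ranged from -0.22 to 0.30 and the median CONTROL SD from 0.56 to 0.82 without 1 library. Equal replicate numbers gave no sign of pairing. The correlations of their deviations were -0.21, -0.27 and 0.098, and 1 of 6 libraries correlated best with its own number. With 3 samples per group this cannot exclude that samples of equal number were handled together. The 9 untested members had at most 35 counts in any library.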
